A study of Mus musculus with 4 samples.

Results

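The miR-23/27/24 miRNAs come from 2 short clusters in the mouse genome, and 6 mature miRNAs of these clusters were read in plasma vesicle preparations: mmu-miR-23a-3p, mmu-miR-23b-3p, mmu-miR-27a-3p, mmu-miR-27b-3p, mmu-miR-24-3p and, from the opposite strand of the miR-24 hairpins, mmu-miR-3074-5p (written without the species prefix from here on). They were taken by name and are 6 of 1809 miRNAs listed in all libraries. All 6 were among the 1797 that passed the filter on low counts. Small RNA had been isolated from vesicles precipitated out of plasma with a commercial reagent, and the labels call them exosomes. Proteins that define exosomes were not measured, so the label could not be checked on these counts. The mice were C57BL/6, either wild type (WT) or gp49B-/- (gp49B KO, lacking an inhibitory receptor of myeloid cells), and mice of both genotypes had received Lewis lung carcinoma (LLC) cells into a vein 21 days before. Each genotype had 2 libraries, numbered as pool 1 and pool 2 and written WTp1, WTp2, KOp1 and KOp2, and a library pooled 3 plasma samples in WT or 4 in KO, so pool size went with genotype. Small RNA libraries do not read gp49B mRNA, so the genotypes could not be checked. Nothing labelled says whether the pools were prepared on separate occasions, and p-values measure only the spread between these 4 libraries.

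As background, the chromosome 8 cluster makes miR-23a, miR-27a and miR-24 from 1 primary transcript, and the chromosome 13 cluster makes miR-23b, miR-27b and miR-24 from another. The 3p arm is the strand usually loaded into Argonaute, where bases 2 to 8, the seed, pair with target mRNAs. Both clusters are well expressed in endothelial and other vascular cells, where miR-23 and miR-27 are known to promote vessel sprouting, and the chromosome 8 cluster also acts in the commitment of blood progenitors to the myeloid lineage. Other known roles are repression of glutaminase by miR-23, restraint of fat cell differentiation by miR-27 and slowing of the cell cycle by miR-24. In plasma work miR-23a-3p serves as a reference that changes little when red cells break.

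The mature sequences show which of these miRNAs can be told apart. RefSeq (GRCm38.p6) held the mature form of 5 of the 6, printed here 5′ to 3′ with the seed in capitals, because the seeds set the families.
miR-23a-3p: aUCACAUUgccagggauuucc
miR-27a-3p: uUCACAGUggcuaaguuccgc
miR-27b-3p: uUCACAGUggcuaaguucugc
miR-24-3p: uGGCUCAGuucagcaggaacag
miR-3074-5p: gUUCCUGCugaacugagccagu
The miR-27 pair shares 1 seed and differs by 1 base in 21, C19U (miR-27a-3p first, counted from 1 at the 5′ end), so a read with an error there, or cut short before it, cannot be assigned with certainty. How such reads were counted remains not given in the sources used here. The seed of miR-23a-3p matches that of miR-27 at 6 of 7 bases. The seed of miR-24-3p is also carried by miR-5124b, miR-6369, miR-6410 and miR-6413, each counted at 103 UMIs or fewer in every library, and among the miRNAs matched no others shared a seed with these 5.

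On GRCm38 the deposited locus of miR-23a-3p is chr8:84208563-84208583 and that of miR-27a-3p chr8:84208727-84208747, both on the plus strand and within no gene of GENCODE M21 other than their own hairpins. The locus of miR-27b-3p is chr13:63300760-63300780, on the plus strand. There the chromosome 13 cluster lies inside the protein-coding gene 2010111I01Rik, in an intron at Mir23b, while Mir27b and Mir24-1 overlap exons of nonsense-mediated-decay transcripts of that gene. The span of Fancc, on the minus strand, also covers it, with no Fancc exon there. Identical miR-24-3p is encoded at chr13:63301251-63301272 (Mir24-1) and at chr8:84208875-84208896 (Mir24-2), and these counts cannot say from which. In turn miR-3074-5p is encoded opposite both, on the minus strand, at chr13:63301249-63301270 and chr8:84208873-84208894. It is the reverse complement of miR-24-3p over 20 bases, shown in capitals below because the counts of the pair come up again.
miR-24-3p: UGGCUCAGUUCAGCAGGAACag
miR-3074-5p: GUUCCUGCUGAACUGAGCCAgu

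The libraries differed by pool number before any comparison of genotypes. Unique molecular identifiers (UMIs), which let copies of 1 starting molecule be counted once, summed over the 1809 miRNAs to 1577749 in WTp1, 3170219 in WTp2, 1709669 in KOp1 and 3630249 in KOp2, with 5.29, 1.69, 5.70 and 2.11 reads per UMI. The library of KOp1 stood apart in markers of muscle, which took 3.74% of its UMIs against 0.416% to 0.693% in the other 3. Most of that was miR-1a-3p, miR-206-3p and miR-133a-3p, at 1.77%, 1.53% and 0.380%. Of the same list, miR-208a-3p, miR-208b-3p and miR-499-5p had 53, 66 and 68 UMIs in KOp1 and 63, 62 and 56 in WTp1. Fold changes of the members are therefore also given without KOp1. Such a fit sets KOp2 alone against WTp1 and WTp2, so the difference between pools enters its estimates. TMM scaling, which sets the bulk of miRNAs equal between libraries, was used side by side with scaling on the total of miRNA UMIs. Over all 1797 miRNAs the median KO over WT ratio was 0.994 in pool 1 and 0.989 in pool 2 with TMM, and 0.880 and 1.18 with totals, so a ratio scaled on totals is read against those values.

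As a group the 6 miRNAs took 1.44% of miRNA UMIs in WTp1 and 0.511% in WTp2, against 2.15% and 0.680% in KOp1 and KOp2. The share was higher in KO within each pool number, and both pool 1 libraries lay above both pool 2 libraries. Most of it was miR-23a-3p, miR-24-3p and miR-27b-3p, which held that order in all 4 libraries and ranked between 25th and 51st of all miRNAs. Below them the order of miR-27a-3p, miR-23b-3p and miR-3074-5p changed between libraries. These are counts of molecules of nearly equal length, 21 or 22 bases in the sequences above, so they were compared without a length correction.

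Levels after TMM scaling are given as CPM (counts per 1e6 scaled UMIs). The mean in WT was 3547 ± 784 for miR-23a-3p, 2293 ± 265 for miR-24-3p, 1800 ± 124 for miR-27b-3p, 535 ± 252 for miR-27a-3p, 323 ± 49.0 for miR-23b-3p and 203 ± 155 for miR-3074-5p (SD, n = 2). In KO the same order gave 4860 ± 761, 3412 ± 1106, 2389 ± 402, 791 ± 487, 372 ± 103 and 312 ± 233 (SD, n = 2). Among neighbours in the order, miR-27a-3p and miR-23b-3p differed by less than the larger of their SDs in both genotypes, as did miR-23b-3p and miR-3074-5p, and miR-24-3p and miR-27b-3p did so in KO.

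**Figure D1:**
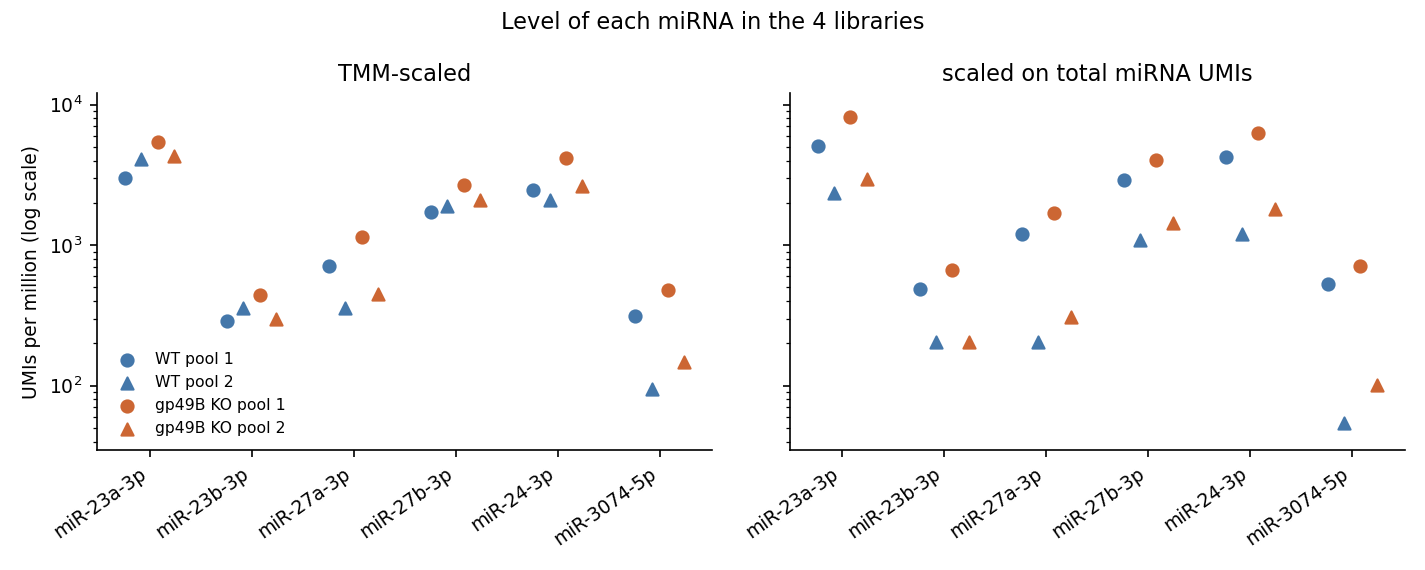
Level of each miRNA in CPM (log axis), after TMM scaling on the left and scaled on total miRNA UMIs on the right; each point is 1 library, with colour for genotype and shape for pool. On totals, for each of the 6, both pool 1 libraries lie above both pool 2 libraries, and with TMM this holds for miR-27a-3p and miR-3074-5p.

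The main question was whether gp49B KO and WT vesicles differed in these miRNAs. In pool 1 all 6 were higher in KO, by ratios of 1.52 to 1.80 with TMM. The median over the 352 miRNAs averaging at least 100 UMIs was 1.09 there, and 0.980 in pool 2. In pool 2 the ratios of the members ran from 0.835 for miR-23b-3p to 1.57 for miR-3074-5p, and 5 of the 6 members were above 1. None passed the test across libraries: with edgeR's quasi-likelihood test each had a Benjamini-Hochberg adjusted p of 0.99995, with unadjusted p from 0.422 to 0.728. Of the 1797 miRNAs tested, 0 were called, or 0% (32 at an unadjusted p under 0.05, or 1.78%). DESeq2 called 0 with 28 at that unadjusted level, limma-voom 0 with 27, and limma on the authors' log2 values 0 with 15.

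The count of members higher in KO within both pools, 5 of 6 under either scaling, stands beside 24.5% of all miRNAs tested with TMM and 24.4% with totals. Among the 352 miRNAs averaging at least 100 UMIs, which include all 6, the shares were 30.7% and 33.8%. Members of 1 transcript are not independent of each other, so the count is a description. With TMM, both KO libraries lay above both WT libraries for 3 of 6, against 9.52% of all miRNAs tested and 10.2% of the 352, and with totals for 0 of 6, against 3.28% and 7.67%. The median log2 fold change (KO over WT, TMM) was 0.51 over the 6 and -0.03 over all tested. Without KOp1, with KOp2 set against both WT libraries, these medians were 0.06 and -0.03, and 3 of the 6 estimates were above 0. In pooled plasma, more vesicles from a source and more of a miRNA per vesicle cannot be told apart.

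The most abundant member, miR-23a-3p, had 8007 UMIs in WTp1, 7461 in WTp2, 13867 in KOp1 and 10729 in KOp2. After TMM these were 2992, 4101, 5398 and 4322 CPM. Both KO libraries were above both WT libraries, though KOp2 lay just above WTp2. Pool 1 gave a KO over WT ratio of 1.80, with an exact 95% interval of 1.75 to 1.85, and pool 2 gave 1.05 (1.02 to 1.09). Such intervals cover counting error only. With totals the ratios were 1.60 and 1.26, to be read against medians of 0.880 and 1.18 over all miRNAs tested. The log2 fold change was 0.45 (SE 0.73), and 0.30 without KOp1.

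Its chromosome 13 relative miR-23b-3p was much rarer, with 772, 651, 1142 and 742 UMIs in WTp1, WTp2, KOp1 and KOp2. After TMM the levels were 289, 358, 445 and 299 CPM. KOp1 was the highest, but WTp2 lay above KOp2, so the genotypes overlapped. This was the 1 member whose direction differed between pools, at 1.54 (1.41 to 1.69) in pool 1 and 0.835 (0.751 to 0.929) in pool 2. On totals the pool 2 ratio was 0.995 (0.895 to 1.11), below the median of 1.18 over all miRNAs tested. Its log2 fold change of 0.20 (SE 0.57) became -0.09 without KOp1.

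For miR-27a-3p, of the chromosome 8 cluster, the UMIs were 1909, 649, 2917 and 1110 in the same order of libraries, or 713, 357, 1136 and 447 CPM after TMM. Pool number separated these values more than genotype did, and WTp1 lay above KOp2. KO exceeded WT 1.59-fold (1.50 to 1.69) in pool 1 and 1.25-fold (1.14 to 1.38) in pool 2. With totals it did so 1.41-fold and 1.49-fold, to be read against the same medians of 0.880 and 1.18. The log2 fold change was 0.56 (SE 0.69). Without KOp1 it was -0.24, with KOp2 alone set against WTp1 and WTp2, though KOp2 lay above WTp2.

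For miR-27b-3p, of the chromosome 13 cluster, they were 4583, 3434, 6866 and 5224 UMIs, or 1713, 1888, 2673 and 2104 CPM. The genotypes did not overlap after TMM. Pools 1 and 2 gave ratios of 1.56 (1.50 to 1.62) and 1.11 (1.07 to 1.16), and with totals 1.38 and 1.33, to be read against the same medians of 0.880 and 1.18. The log2 fold change was 0.41 (SE 0.67), and 0.24 without KOp1.

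Both clusters feed miR-24-3p, which had 6636, 3831, 10774 and 6530 UMIs, or 2480, 2106, 4194 and 2631 CPM. The KO libraries lay above the WT libraries after TMM, with KOp2 close to WTp1. The pool 1 ratio was 1.69 (1.64 to 1.74), against 1.25 (1.20 to 1.30) for pool 2. With totals they were 1.50 (1.45 to 1.55) and 1.49 (1.43 to 1.55), on a scale where all miRNAs had medians of 0.880 and 1.18, so that relative to other miRNAs the pools still differed, as with TMM. The log2 fold change was 0.57 (SE 0.71), and 0.21 without KOp1.

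The opposite-strand miRNA miR-3074-5p had 837, 171, 1224 and 366 UMIs, or 313, 94.0, 477 and 147 CPM after TMM. Its levels followed pool number, at 0.301 of the pool 1 level in WTp2 and 0.309 in KOp2, against medians of 0.971 and 1.01 over all miRNAs tested. On totals these were 0.102 and 0.141, against medians of 0.329 and 0.460. KO was 1.52-fold higher (1.39 to 1.67) in pool 1, and pool 2 gave 1.57 (1.30 to 1.89), the 1 member whose pool 2 ratio was not the smaller with TMM. With totals the ratios were 1.35 and 1.87, to be read against medians of 0.880 and 1.18 over all miRNAs tested. The log2 fold change was 0.62 (SE 0.74), and it became -0.45 without KOp1 and -0.0033 without WTp2. Leaving out WTp1 gave 1.75 (edgeR adjusted p 0.998), so the estimate rests on which pools are set against each other.

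**Figure D2:**
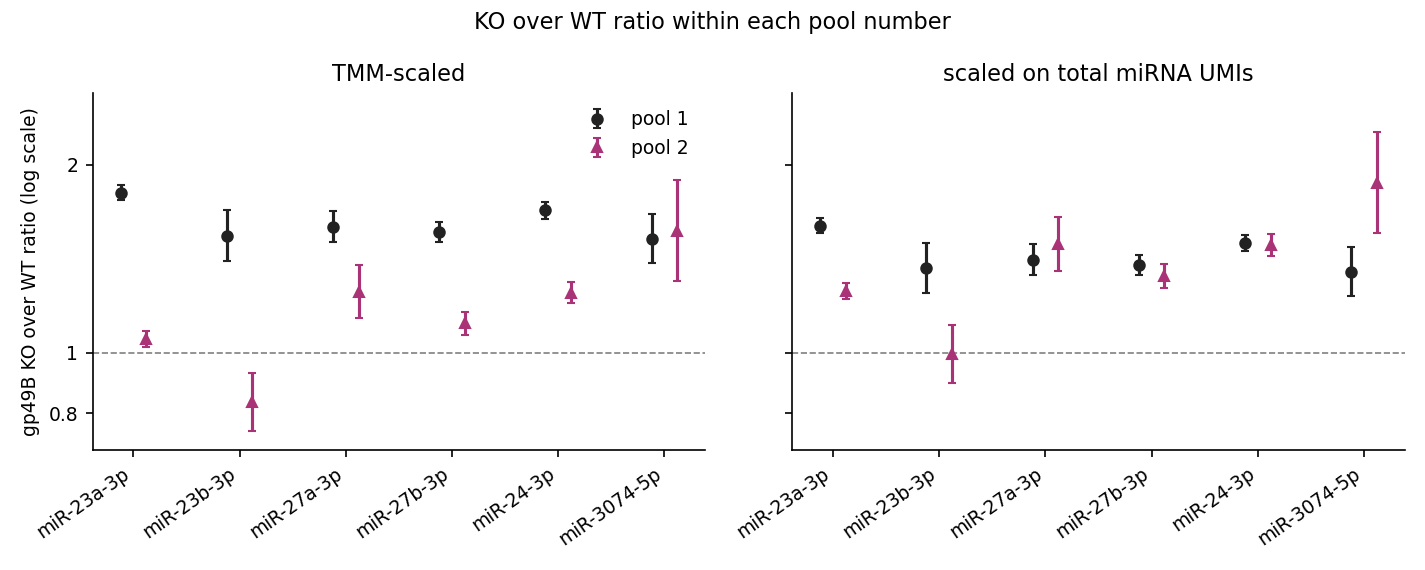
KO over WT ratio of each miRNA (log axis) within pool 1 and pool 2, with TMM on the left and total UMIs on the right; bars are exact 95% intervals for counting error only, and the dashed line marks a ratio of 1. All pool 1 ratios lie above 1 under both scalings, and miR-23b-3p in pool 2 is at 0.835 with TMM and 0.995 with totals.

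**Figure D3:**
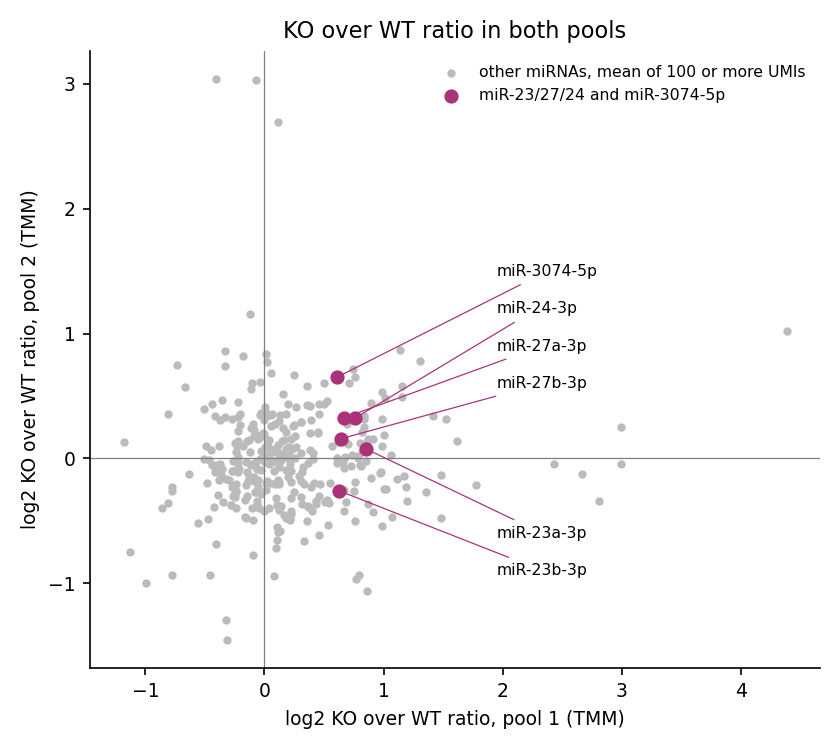
Log2 KO over WT ratio in pool 1 (x axis) and in pool 2 (y axis), both after TMM, for the 352 miRNAs averaging at least 100 UMIs; the 6 cluster miRNAs are the large points. They sit together right of 0 on the pool 1 axis and spread along the pool 2 axis, with other miRNAs around them.

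Shares within a library need no scaling, and they show how the counts of the clusters were made up. Of the miR-23 molecules, miR-23a-3p made up 91.2% (90.6 to 91.8%, exact 95% binomial interval) and 92.0% (91.4 to 92.6%) in WTp1 and WTp2 and 92.4% (92.0 to 92.8%) and 93.5% (93.1 to 94.0%) in KOp1 and KOp2. The KO shares were the higher ones, by 1.37 percentage points on average. The exact permutation p (2-sided) was 0.333, the smallest that 2 against 2 libraries allow, and 1 after adjustment over 5 such ratios. Counted in reads the shares were 93.1%, 92.0%, 94.1% and 93.5% in the same order, again higher in KO. No mature sequence of miR-23b-3p was at hand, so how far its reads can be told from those of miR-23a-3p was not checked.

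The miR-27 molecules had the opposite balance, with the chromosome 13 form dominant. The share of miR-27a-3p was 29.4% and 29.8% in WTp1 and KOp1, and 15.9% and 17.5% in WTp2 and KOp2. Thus the mix of miR-27 forms was set apart by pool number, and within a pool the genotypes differed by 0.412 and 1.63 percentage points. As counted, the chromosome 8 form took most of miR-23 but the minor part of miR-27 in every library. Differences in how well each sequence is read were not corrected for, so these shares need not be those of the molecules in the vesicles. The mean difference between genotypes was 1.02 percentage points (exact permutation p = 0.667).

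Taking the families together, miR-23 made up 57.5% and 66.5% of miR-23 plus miR-27 in WTp1 and WTp2 and 60.5% and 64.4% in KOp1 and KOp2. From WT to KO the share was 3.05 percentage points higher in pool 1 and fell by 2.09 in pool 2. The share of miR-24-3p in the sum of miR-23, miR-27 and miR-24 was 30.3% in both pool 1 libraries, 23.9% in WTp2 and 26.8% in KOp2. Pool 1 libraries of the 2 genotypes could not be told apart by it, and the pool 2 libraries differed beyond counting error. Exact permutation p-values over libraries were 1 and 0.667. With a library left out, the sign of the difference between genotypes held for the miR-23a-3p share and turned, for at least 1 of the 4 libraries, for each of the other 4 ratios.

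**Figure D4:**
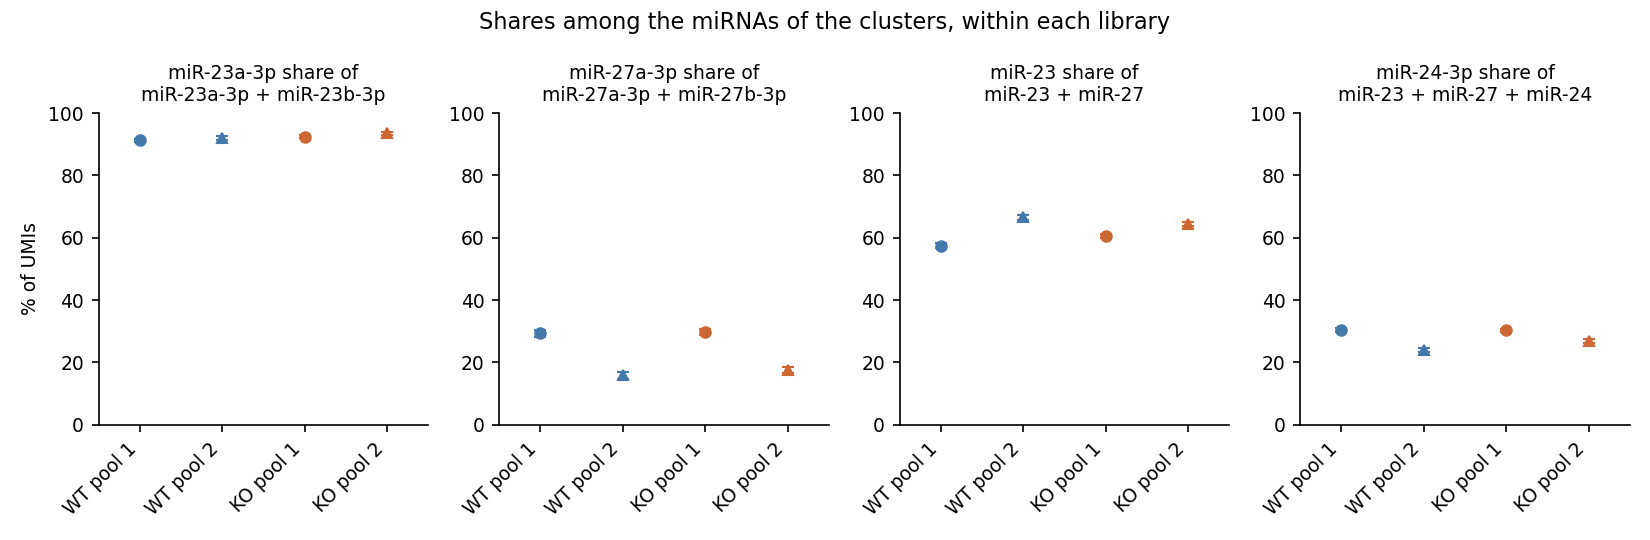
Shares of UMIs among the cluster miRNAs in each library, in percent, with exact 95% binomial intervals, most of them smaller than the points; blue is WT and orange KO. The miR-27a-3p share is 29.4% and 29.8% in pool 1 and 15.9% and 17.5% in pool 2, while the miR-23a-3p share stays between 91.2% and 93.5%.

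Against its antisense partner, miR-3074-5p had 1261 UMIs per 10000 of miR-24-3p in WTp1 (exact 95% interval 1172 to 1356) and 1136 (1070 to 1205) in KOp1. In pool 2 it had 446 (381 to 520) in WT and 560 (503 to 623) in KO. The ratio was thus higher in both pool 1 libraries than in both of pool 2, while KO dropped by 125 against WT in pool 1 and was 114 higher in pool 2. In read counts the same ratio varied less, at 391, 376, 352 and 435 in WTp1, WTp2, KOp1 and KOp2. From pool 1 to pool 2 it was lower in WT and higher in KO. A lower ratio in pool 2 for both genotypes was thus seen in UMIs and not in reads.

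That contrast goes with the number of reads behind each UMI. For miR-3074-5p it was 1.77 and 1.86 in WTp1 and KOp1 and 1.40 and 1.62 in WTp2 and KOp2. For miR-24-3p it was 5.71 and 6.01 in pool 1 and 1.66 and 2.09 in pool 2, close to the medians of 5.82, 6.16, 1.71 and 2.18 over those 352 miRNAs. Counted from the lowest, miR-3074-5p ranked 8th, 16th, 10th and 14th of 352 in WTp1, WTp2, KOp1 and KOp2. Its UMIs thus averaged fewer than 2 reads also in pool 1, where the libraries as a whole had 5.29 and 5.70. Among the others, miR-23b-3p stood lowest in pool 1, at 4.79 and 4.92 reads per UMI, ranking 40th and 35th, against 6.21 and 6.49 for miR-23a-3p. The strand setting of the counting remains not given in the sources used here, so reads of miR-3074-5p and miR-24-3p could not be separated with certainty.

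**Figure D5:**
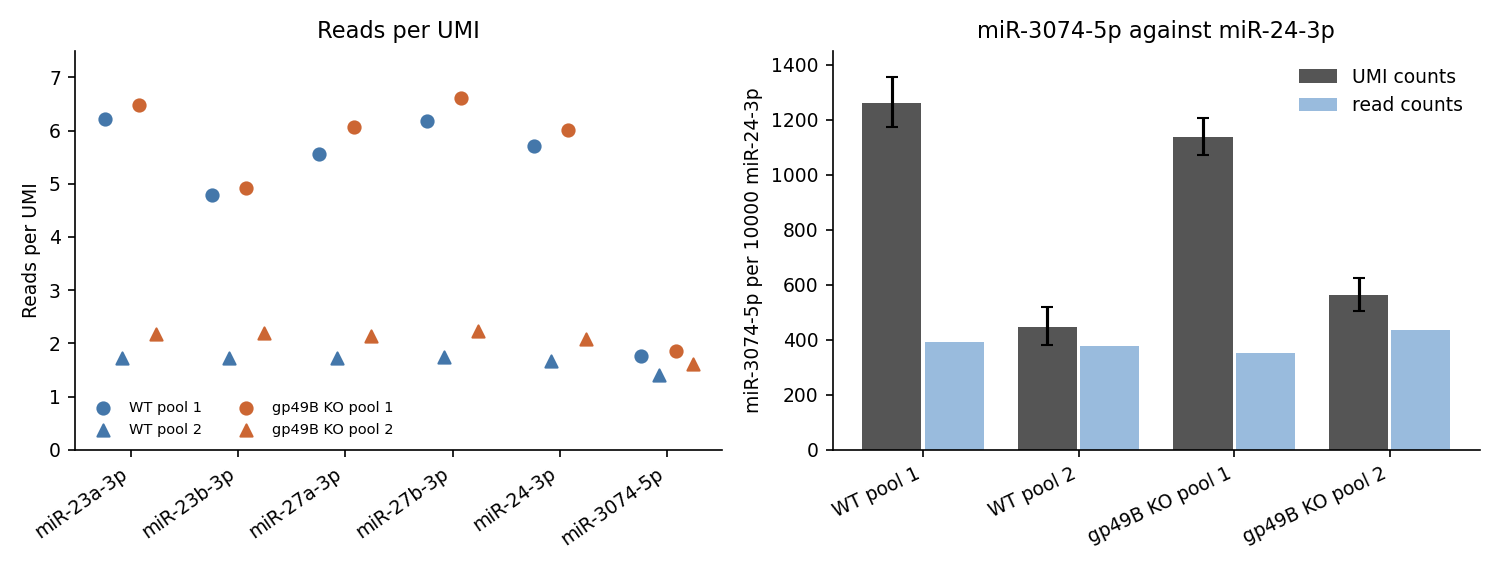
Left, reads per UMI of each miRNA in the 4 libraries; right, miR-3074-5p per 10000 of miR-24-3p in each library by UMI counts (dark bars, exact 95% intervals for counting error) and by read counts (light bars). In pool 1 miR-3074-5p has fewer than 2 reads per UMI where the other 5 have 4.79 or more. The UMI bars are lower in pool 2 for both genotypes, and the read bars are not.

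The other arms of the same hairpins were far rarer. All 8 were listed, with 254 UMIs or fewer in every library, and 7 passed the filter on low counts, the exception being miR-3074-2-3p, listed at 0 in WTp1 and at 6, 10 and 11 in WTp2, KOp1 and KOp2. In pool 1 no count between 1 and 9 appears, so WTp1 merely lists it at 0. None of the 7 was called, their median log2 fold change was 0.05, and 5 of 7 estimates were above 0. The largest was 0.80 (SE 0.49) for miR-3074-1-3p, counted 22, 21, 28 and 58 times in WTp1, WTp2, KOp1 and KOp2, and the lowest was -0.21 for miR-27a-5p. Without KOp1 these became 1.27 and 0.17, with a median of 0.07 over the 7. The miRNAs that share the seed of miR-24-3p had log2 fold changes of -0.61 to 0.25, or -1.36 to 0.42 without KOp1, and none was called.

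The partner arm of miR-23b was the least rare relative to its guide among the miR-23 and miR-27 hairpins in every library. Its miR-23b-5p had 187, 57, 254 and 118 UMIs, so that 4.13, 11.4, 4.50 and 6.29 molecules of miR-23b-3p were counted per molecule in WTp1, WTp2, KOp1 and KOp2. For miR-23a the same ratio of arms was 38.1, 162, 66.3 and 134, for miR-27a it lay between 23.6 (KOp2) and 108 (KOp1), and for miR-27b it was 97.5, 245, 176 and 275. KO over WT ratios of miR-23b-5p were 1.41 (1.17 to 1.72) and 1.52 (1.10 to 2.12) with TMM, above 1 in both pools where miR-23b-3p was not.

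The 5p arms of miR-24 tell its hairpins apart, as the sequences show, since they differ outside the seed (capitals).
miR-24-1-5p: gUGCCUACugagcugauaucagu
miR-24-2-5p: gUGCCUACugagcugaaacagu
Of these, miR-24-1-5p of chromosome 13 had 62, 56, 58 and 79 UMIs and miR-24-2-5p of chromosome 8 had 38, 25, 37 and 36 in WTp1, WTp2, KOp1 and KOp2. The chromosome 13 arm was the more frequent in every library. Their KO over WT ratios with TMM were 0.974 and 1.03, and 1.01 and 1.06, in pools 1 and 2. At these counts every 1 of those ratios had an interval that covered 1, from 0.669 to 1.42 for miR-24-1-5p in pool 1, which also lies below the pool 1 ratio of miR-24-3p.

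Profiles over the 4 libraries were compared as log2 CPM (TMM) centred on each miRNA's mean. Within the group, miR-23a-3p and miR-27b-3p were closest, at a distance of 0.23, and miR-23a-3p and miR-3074-5p farthest apart, at 1.83. Outside it, the 5 of 352 miRNAs nearest to the median profile of the 5 members other than miR-3074-5p were miR-200b-3p (0.078), miR-218-5p (0.18), miR-3085-5p (0.19), miR-381-3p (0.22) and miR-300-3p (0.22). Of all miRNAs tested, miR-126b-3p was nearest to miR-3074-5p (0.11), with 726, 165, 1140 and 343 UMIs and 1.42, 1.15, 1.33 and 1.14 reads per UMI in WTp1, WTp2, KOp1 and KOp2. With 4 libraries such closeness is a description only.

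Markers of possible sources also differed between the libraries of the genotypes, and their part in the values above was not tested. The 2 endothelial markers, miR-126a-3p and miR-126a-5p, took 0.587% and 0.339% of UMIs in WTp1 and WTp2 and 0.922% and 0.339% in KOp1 and KOp2, for a summed KO over WT ratio (TMM) of 1.77 in pool 1 and 0.839 in pool 2. Myeloid markers (4 miRNAs, led by miR-223-3p) had ratios of 2.37 and 0.827, and the 2 smooth muscle markers miR-143-3p and miR-145a-5p had 1.73 and 0.520. All members of these 3 lists were higher in KO in pool 1, as all 6 cluster miRNAs were. In pool 2, 0 of 2, 1 of 4 and 0 of 2 were higher. The median ratio (TMM) over the 352 miRNAs averaging at least 100 UMIs was 1.09 in pool 1 and 0.980 in pool 2. The 3 platelet and stromal markers had summed ratios of 1.69 and 1.56, most of the sum being miR-199a-3p, which was counted with miR-199b-3p. In pool 1 2 of 3 were higher in KO, with miR-214-3p at 0.932, and in pool 2 3 of 3. Muscle markers had 10.2 and 1.35, with 6 of 7 and 2 of 7 higher in KO. In pool 1 the muscle markers miR-208b-3p, at 1.11 (0.772 to 1.59), and miR-499-5p, at 1.26 (0.875 to 1.84), had intervals that covered 1. The 2 lymphocyte markers had summed ratios of 1.32 and 0.856, with 2 of 2 and 0 of 2 higher in KO, as in the endothelial and smooth muscle lists. On totals the pool 2 ratio was 1.00 for endothelial, 1.02 for lymphocyte and 0.985 for myeloid markers. All 3 lay below the median of 1.18 over all miRNAs tested on that scale.

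The summed red cell and liver markers had ratios below 1 in both pools under either scaling. Single markers did not all: in pool 2 miR-144-3p was at 1.09 with TMM. On totals miR-144-3p was at 1.30 there, miR-451a at 1.04, miR-144-5p at 1.06 and miR-122-3p and miR-802-5p at 1.08. The median on totals over all miRNAs tested was 1.18 in pool 2, and of these markers only miR-144-3p lay above it. The 5 red blood cell markers summed to 10.6% and 18.4% of UMIs in WTp1 and WTp2 and 7.94% and 17.8% in KOp1 and KOp2, and the 5 liver markers, in the same order, to 11.4%, 27.3%, 7.49% and 20.3%. Summed KO over WT ratios (TMM) were 0.843 and 0.809 for red cells and 0.743 and 0.624 for liver, and none of the 5 in each list was higher in KO in both pools (0 of 5 each). No marker on any list was at 0 in any library. Set against the red cell miRNA miR-451a, a pairing used as a measure of haemolysis, miR-23a-3p gave 0.367 (exact 95% interval 0.352 to 0.383) miR-451a UMIs per miR-23a-3p in WTp1 and 0.976 (0.945 to 1.01) in WTp2. In KO it gave 0.173 (0.165 to 0.180) in pool 1 and 0.805 (0.782 to 0.828) in pool 2. It was lower in KO within each pool number and lower in pool 1 within each genotype, and the genotypes overlapped across pools. Its reference is a member of the group, with KO over WT ratios (TMM) of 1.80 and 1.05 in pools 1 and 2. Those of miR-451a alone were 0.850 and 0.869, so the measure moves with both and cannot be read as haemolysis alone.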

How the data were processed

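Plasma vesicle RNA of 4 libraries (2 WT, 2 gp49B KO) was made into UMI-tagged libraries with the QIAseq miRNA kit, per the labels' protocols. The authors deposited UMI counts and read counts per mature miRNA, as unnormalized whole numbers, and a normalized log2 value per library, which equals log2 of the UMI count plus a constant (-0.0276, 0.215, 0.0296 and -0.209 in WTp1, WTp2, KOp1 and KOp2), or 0 where the count is 0. FastQC 0.11.9 and GRCm38/mm10 were in use, per the submitters' processing notes, while aligner and counter remain not given in the sources used here. Per-library files whose column names depart from their labels were assigned by label, and 0 of their counts differed from the table of all libraries.

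The 1809 miRNAs listed in both pools were used, without piRNAs, 54 miRNAs specific to the pool 1 list and 7 specific to that of pool 2. The genotype test was edgeR's quasi-likelihood test (edgeR 4.0.16, R 4.3.3) with its default filter, TMM and no block, and calls needed a Benjamini-Hochberg adjusted p under 0.05. It was tested on simulated data, with larger changes than those of the members and no deviation shared within a pool number. SE is the log2 fold change over the square root of F. Ratios within a pool have exact 95% intervals. Profile distances are Euclidean, on log2 CPM with a prior count of 2. Tables used Python 3.11.15, pandas 2.3.3 and SciPy 1.17.1. UMI totals of 1577749 to 3630249 limit the precision of counting, and 2 libraries per genotype that of the fold changes.

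Named were all 6 members, the other arms of their hairpins, miRNAs of the same seed, the nearest profiles and marker miRNAs. The members and lists were chosen with earlier results of these data known, and the miR-451a ratio and the comparison of reads per UMI after their values were seen. Alternatives were other scalings and filters, a replicate block, each library left out, limma-voom 3.58.1, DESeq2 1.42.0, read counts and the authors' log2 values.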

Additional observations from a re-analysis of the deposited data

How the results depend on the processing

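Under the 12 alternatives other than leaving out a library, all 72 estimates (6 miRNAs each) stayed above 0 and 0 passed, with a lowest adjusted p of 0.752. Leaving out 1 library gave log2 fold changes from -0.095 to 0.46 for miR-23b-3p, from -0.24 to 1.17 for miR-27a-3p and from -0.45 to 1.75 for miR-3074-5p. The values below 0 came without KOp1, and for miR-3074-5p also without WTp2 (-0.0033). For miR-23a-3p, miR-27b-3p and miR-24-3p the ranges were 0.27 to 0.70, 0.24 to 0.57 and 0.21 to 0.87. Without KOp1, 3 of the 6 estimates were above 0, and without WTp2, 5 of 6.

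Libraries of the same pool number deviated alike (correlation across miRNAs 0.527), but the labels do not say that the number marks a shared batch. With pool number as a replicate block the 6 log2 fold changes were 0.18 to 0.63, with a lowest unadjusted p of 0.0531 and adjusted p from 0.898 to 0.950 (edgeR), and 0 miRNAs were called. With the replicate block over the 352 miRNAs averaging at least 100 UMIs, 10 were called, none of them among the 6. Leaving out a library gave 0 to 3 calls, 2 without WTp2 and 3 without KOp2, again none among the 6. Differences in the 5 ratios moved by less than 1 SD under read counts and with each library left out, which is wide: the sign turned for all but the miR-23a-3p share (0.801 to 1.94 percentage points). With 2 libraries per genotype, 1 residual degree of freedom remains in the blocked fits and where a library is left out, and a lone library is then assumed to vary like the others.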

Other observations

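The low number of reads per UMI of miR-3074-5p was shared by other miRNAs encoded opposite a more abundant one. Of the 352 miRNAs averaging at least 100 UMIs, 7 lay at least 15 bases opposite a more abundant mature miRNA by the deposited loci, a search made after the values of miR-3074-5p were seen. They were miR-486b-3p (opposite miR-486a-5p), miR-126b-3p (opposite miR-126a-5p), miR-1b-5p (opposite miR-1a-3p), miR-486a-3p (opposite miR-486b-5p), miR-3074-5p (opposite miR-24-3p), miR-126b-5p (opposite miR-126a-3p) and miR-142b (opposite miR-142a-3p). All 7 were among the 20 miRNAs with the fewest reads per UMI, averaged over libraries as a percentage of the library median. Their values ran from 41.1% for miR-486b-3p to 56.8% for miR-142b, with miR-3074-5p at 54.2% and 11th from the lowest. They lay between 1.33 and 2.54 reads per UMI in pool 1, where the median was 5.82 in WT and 6.16 in KO. The lowest of all was miR-16-2-3p, at 38.3%, which lay opposite no such miRNA. The other 12 of the 20 also lay opposite no such miRNA: let-7b-3p, miR-3970, miR-21b, let-7k, miR-92b-3p, miR-133b-3p, let-7j, miR-21c, miR-195a-5p, miR-3967, miR-1a-1-5p and miR-98-5p. The cause was not tested.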
